A study of Mus musculus with 9 samples.

Results

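The sites described here are the 246 peaks of the glucocorticoid receptor (GR) that were still listed after corticosterone (CORT) had been washed out, of 30508 peaks in the 6 deposited peak lists. They were chosen by their presence in the GR washout list, and each was marked by a shared stretch of at least 1 bp with the peaks of the other lists and with stretches found in input chromatin. Nr3c1 and Nr3c2 encode GR and the mineralocorticoid receptor (MR), and peaks in their coding exons were set apart, since both receptors were supplied on plasmids and reads from a plasmid map to those exons. Because presence in a list and overlap between lists are what the members were selected on, they are given as a description with no test.

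The cells were Neuro2A (N2A), a mouse neuroblastoma line, transiently transfected with both EGFP-GR and mCherry-MR, so every group carried both plasmids. The EGFP and mCherry tags served to precipitate GR and MR for ChIP-nexus, in which an exonuclease trims the precipitated DNA towards the crosslinked protein. The 3 treatments were vehicle (0 nM CORT), 100 nM CORT for 20 minutes, and the same CORT exposure with 2 washes and 40 minutes more without steroid, called washout here. Each of the 3 had an input, and the authors combined 3 replicates per condition into 1 list, which leaves every value without a replicate error.

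The methods of the study name rat GR and rat MR as the inserts, whereas the design text deposited with the data names the mouse receptors. N2A cells have untagged GR of their own and, by the account of the study, no MR. Tagged receptor in these cells came from the plasmids, their own GR adds to the GR total, and peak lists give no receptor amount. They also cannot show whether the cells carry neuroblastoma markers. Read depth behind each peak cannot be read from these files, and absence of a site in one of the lists means only that it did not pass the peak caller there.

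GR is a nuclear receptor that enters the nucleus when a glucocorticoid binds it and regulates genes from glucocorticoid response elements (GREs). A GRE is a palindrome bound by a receptor dimer, and MR recognises the same element. MR holds corticosterone with higher affinity than GR, and GR is known to leave chromatin soon after the hormone falls.

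The 246 peaks fell into 4 classes. There were 18 in coding exons of the receptor genes. Of the others, 41 overlapped a GR vehicle peak and 5 overlapped a border pair of the washout input without a vehicle peak. A border pair is the DNA lying between the exonuclease stops of the plus and minus strands. The remaining 182 peaks met none of these marks and are called clean sites below. Of these, 178 lay on chromosomes 1 to 19, X and Y, where sequence was read, and 4 lay on unplaced contigs.

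Sequences show what the GR washout sites looked like at their closest GRE. The consensus searched was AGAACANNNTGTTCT, within 100 bp of the summit (the point of highest signal in a peak) and with at most 3 of its 12 fixed bases different. It reads the same on both strands. In each line capitals mark bases that match the consensus at a fixed position, and the other bases are in lower case. All lines give the plus strand of GRCm38.

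The first set holds 5 of the 6 sites among the 15 strongest clean sites that had such an element, which show how far the strongest sites depart from the consensus.
Rpl27, chr11:101442219-101442249: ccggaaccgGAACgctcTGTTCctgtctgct
Ptpn11, chr5:121187900-121187930: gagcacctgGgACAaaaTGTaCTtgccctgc
Rab4a, chr8:123786460-123786490: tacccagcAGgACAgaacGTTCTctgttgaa
Nfkbia, chr12:55492014-55492044: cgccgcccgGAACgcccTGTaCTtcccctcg
Plec, chr15:76208298-76208328: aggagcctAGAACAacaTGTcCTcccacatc

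The second set holds the clean sites at members of the gene lists described below, other than Nfkbia.
Ddc intron, chr11:11844615-11844645: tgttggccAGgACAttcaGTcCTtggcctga
Cdkn1a intron, chr17:29094691-29094721: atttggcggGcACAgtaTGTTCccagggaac

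The third set holds the closest matches among the clean sites outside the 15 strongest, and was chosen after the matches were counted.
Ddit4, chr10:59974265-59974295: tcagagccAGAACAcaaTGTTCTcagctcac
Rab3c, chr13:110283960-110283990: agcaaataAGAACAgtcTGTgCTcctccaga
Prr5, chr15:84639631-84639661: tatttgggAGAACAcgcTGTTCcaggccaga
Bcl2l10, chr9:75363152-75363182: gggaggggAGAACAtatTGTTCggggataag

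The site 22480 bp upstream of Ddit4, which encodes an inhibitor of mTOR signalling, was the 1 clean site of 178 with all 12 fixed bases of the GRE. It was also 1 of the 4 clean sites that overlapped an MR vehicle peak. It did not stand high in the washout list, with a −log10 p of 7.77, where −log10 p is the significance of a peak against input and a higher value is a stronger call. Another 4 clean sites had 1 mismatch, 19 had 2 and 48 had 3. The best match had 4 mismatches at 67 sites, 5 at 36 and 6 at 3. Of the 5 sites with at most 1 mismatch, the one in Plec alone was among the 15 strongest.

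The strongest peaks of the washout list were in the receptor genes. The 18 peaks in receptor coding exons had a median −log10 p of 32.9 with a range of 14.9 to 75.5. Nr3c1 held 8 of them, with a median of 33.9 and a highest value of 71.8. Nr3c2 held 10, with a median of 32.9 and a highest value of 75.5. Each overlapped a GR CORT peak, an MR CORT peak and an MR washout peak, and 15 of the 18 also overlapped a GR vehicle peak and 15 an MR vehicle peak. Of the 10 strongest washout peaks, 9 were in these exons and 1 was at a site already listed after vehicle.

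The 5 strongest peaks of this class lay on chromosomes 8 and 18. The strongest was in a coding exon of Nr3c2 (chromosome 8, 77217374 to 77217631, 75.5), and the next was in one of Nr3c1 (chromosome 18, 39486030 to 39486580, 71.8). The others were in Nr3c2 (chromosome 8, 76908228 to 76908822, 58.1), in Nr3c1 (chromosome 18, 39428611 to 39428788, 48.7) and again in Nr3c2 (chromosome 8, 77242334 to 77242540, 43.5). The protein-coding start nearest to the first and the last of these belonged to Arhgap10, a neighbour of Nr3c2. Their GR CORT ranks by −log10 p were 1, 5, 10, 2 and 8 of 10602, so the same exons also led the list made with hormone present.

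The 41 peaks that overlapped a GR vehicle peak had a median −log10 p of 15.3 with a range of 7.32 to 32.1. They were wide, with a median of 183 bp against 116 bp for the clean sites. A median of 78.6% of their bases on the main chromosomes was masked as repeat in the reference, whereas the median of the clean sites was 0%. Chromosomes 2, 9 and 14 held 8 each, and 10 were on unplaced contigs. The 8 on chromosome 14 all lay between 19416086 and 19419528. The strongest peaks of the class lay in an intron of the predicted gene Gm10801 (chromosome 2, 98662624 to 98662976, 32.1) and in a coding exon of Gm10800 and near it (28.5 and 28.2). The next were 37431 bp from the start of Rpusd4 (26.8) and on the contig GL456392 (25.8). A border pair of the washout input overlapped 34 of the 41 sites (82.9%, 95% Wilson interval 68.7 to 91.5), and these intervals cover counting error only. None of the 31 sites on the main chromosomes had a GRE, AP-1, GATA or NF-1 motif near its summit, and a count of 0 of 31 allows a share of up to 11.0% by the same interval.

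The 5 input sites had −log10 p values from 8.92 to 13.1. The strongest lay 636160 bp from the start of Epha7 (chromosome 4, 28176890 to 28176991, 13.1) and had a GRE with 3 mismatches. The others were 25029 bp from the start of Ly6c2 (chromosome 15, 12.4), on the contigs GL456396 (11.8) and GL456383 (8.92), and in a coding exon of the predicted gene Gm11168 (chromosome 9, 11.3). All 5 overlapped an MR washout peak and 3 overlapped a GR CORT peak.

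**Figure D1:**
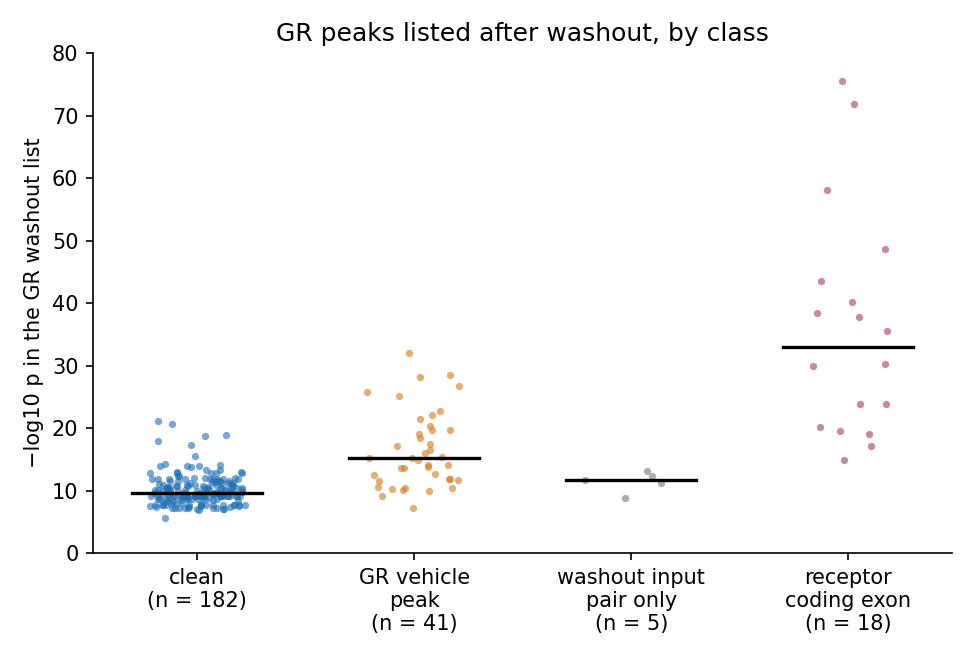
Each point is 1 of the 246 GR washout peaks, with its −log10 p in the GR washout list on the y axis and its class on the x axis, and black lines are class medians. The 18 receptor exon peaks reach 75.5, whereas the 182 clean sites lie between 5.67 and 21.1 with a median of 9.59.

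The 182 clean sites were weak in the washout list, and most of the 162 with a GR CORT peak ranked high in the CORT list. Their median −log10 p after washout was 9.59, with quartiles of 8.73 and 11.3 and a range of 5.67 to 21.1. None was among the 20 strongest washout peaks, 9 were among the 50 strongest, and 26 shared the value 9.10. In the GR CORT list, by contrast, the peaks that overlapped 162 of them had a median percentile of 93.6 by −log10 p, where 100 is the strongest peak of the list. The lower quartile was 82.7 and the lowest value 8.97. Percentiles rank peaks within a list, because −log10 p depends on depth and is not an amount of binding.

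A GR CORT peak overlapped 162 of the 182 clean sites (89.0%, 83.6 to 92.8). Counted from the CORT list, 226 of all 10602 GR CORT peaks (2.13%) had a washout peak of any class, a share with another denominator that is no background for the first. An MR CORT peak also overlapped 162 clean sites (89.0%, 83.6 to 92.8), and an MR washout peak overlapped 133 (73.1%, 66.2 to 79.0). All 3 were present at 130 sites. A further 25 sites had a GR and an MR CORT peak but no MR washout peak, 6 had a GR CORT peak alone and 5 an MR CORT peak alone. There were 13 sites with none of the 3, 2 with both MR peaks but no GR CORT peak, and 1 with a GR CORT and an MR washout peak only. Of the clean sites, 4 shared bases with an MR vehicle peak and 2 with a pair from the CORT input.

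The threshold of the overlap rule separated close cases. The smallest overlap of a clean site with a GR CORT peak was 11 bp. The 20 clean sites without one lay from 0 bp (adjacent) to 1495447 bp from the nearest GR CORT peak, with a median of 12538 bp and a lower quartile of 56.0 bp, so some of them were beside a CORT peak rather than away from every one. Where peaks overlapped, summits were a median of 40.0 bp apart for GR CORT (quartiles 17.2 and 77.5), 37.5 bp for MR CORT and 32.0 bp for MR washout. When summits within 50 bp were required in place of a shared base, 52.7% of 184 clean sites had a GR CORT peak and 50% an MR washout peak.

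**Figure D2:**
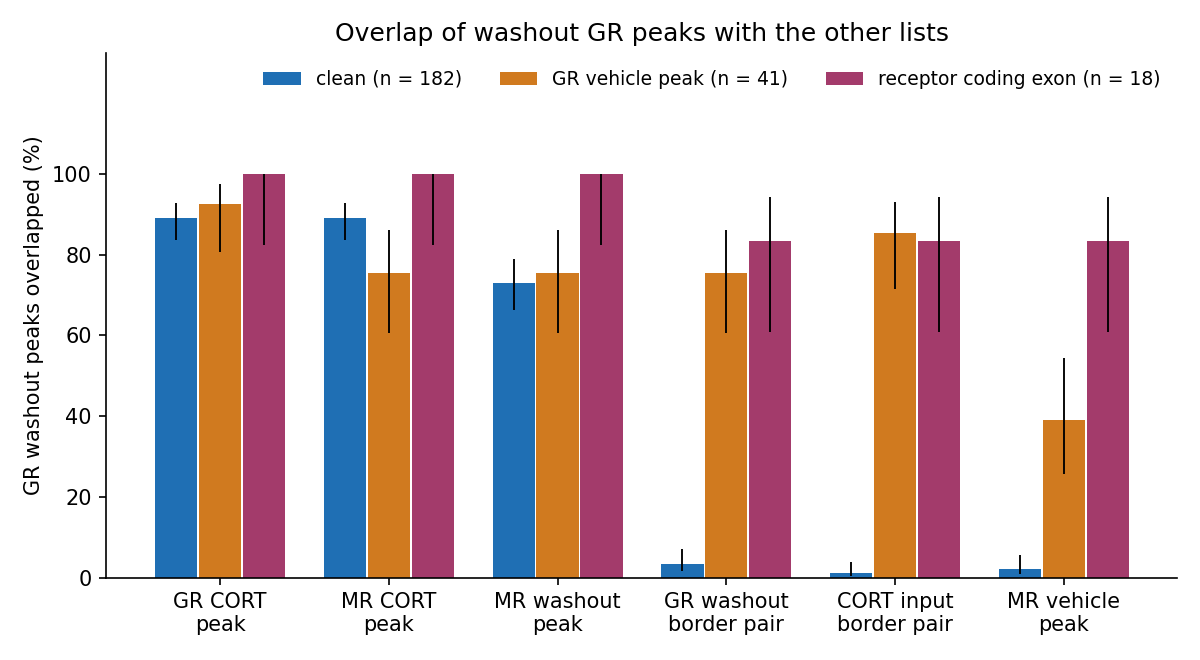
Bars give the percentage of GR washout peaks of 3 classes (y axis) that shared at least 1 bp with each kind of peak or border pair (x axis), with 95% Wilson intervals. Clean sites overlap CORT and MR washout peaks at 73.1% to 89.0% but a GR washout border pair at only 3.30%, where the other 2 classes reach 75.6% and 83.3%. Clean sites were chosen to hold no washout input border pair.

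Border pairs of the GR washout library were unevenly spread over the classes, which were themselves made partly with border pairs. Clean sites hold no washout input pair by definition, whereas 34 of the 41 vehicle sites and 14 of the 18 receptor exon peaks had one. Their median −log10 p was also lower, at 9.59 against 15.3 and 32.9. The part of the filter and of peak strength in these shares was not tested. A pair called in the GR washout library itself overlapped 31 of the 41 sites also listed after vehicle (75.6%, 60.7 to 86.2) and 15 of the 18 receptor exon peaks (83.3%, 60.8 to 94.2). It overlapped 6 of the 182 clean sites (3.30%, 1.52 to 7.0). By nearest protein-coding start these 6 lay 7942 bp from Pak6, 59633 bp from Zfp366, 18212 bp from Trim2 and 373156 bp from Kcnh5. The others were on the contigs JH584304 and GL456396, and all 6 are named after their values were seen. Both contig sites also overlapped a pair of the CORT input, and the Kcnh5 site overlapped an MR vehicle peak and was 83.1% masked as repeat. Among them the site near Trim2 had a GRE with 2 mismatches and the one near Zfp366 one with 3.

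The clean sites with an MR washout peak ranked higher in the CORT lists than those without one. The 133 with an MR washout peak had a median GR CORT percentile of 95.1 over the 131 that overlapped a GR CORT peak, and the 49 without had a median of 75.3 over 31. Their median −log10 p after GR washout was 9.91 and 9.10. Seen from the CORT list, 137 of the 162 GR CORT peaks that overlapped a clean site also had an MR washout peak (84.6%, 78.2 to 89.3), against 2805 of the 10376 GR CORT peaks with no GR washout peak (27.0%, 26.2 to 27.9). Among the 2120 strongest peaks of the GR CORT list, which had a −log10 p of at least 12.6, the shares were 92.7% of 123 and 62.2% of 1953.

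**Figure D3:**
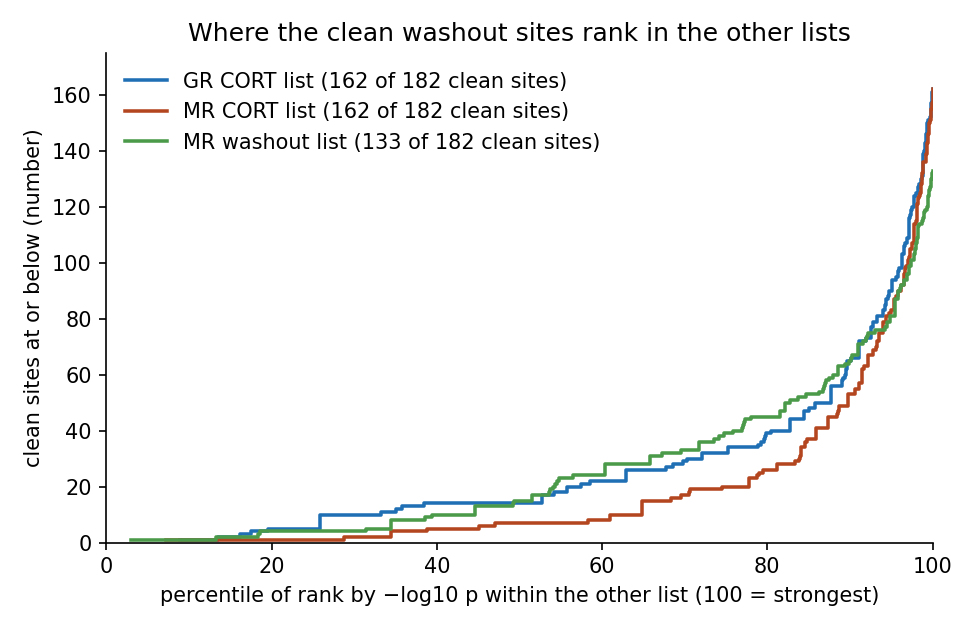
Lines count the clean sites (y axis) whose overlapping peak lies at or below a given percentile of rank by −log10 p in the GR CORT, MR CORT or MR washout list (x axis, 100 is the strongest). All 3 lines rise mostly at the right, with medians of 93.6, 94.6 and 90.2, and each has a tail of low-ranking sites.

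Of all 10602 GR CORT peaks, 226 (2.13%) had a washout peak of any class. The share was higher among the strongest, but a high rank after CORT did not ensure a washout peak. Among GR CORT peaks outside receptor exons, GR vehicle peaks and CORT input pairs, 12 of the 50 strongest had a washout peak (24.0%), as did 24 of the 100 strongest (24.0%) and 70 of the 500 strongest (14.0%). The peak 19564 bp from the start of Rab4a had rank 3 in the whole GR CORT list and that in Nfkbia rank 11. Both had a clean washout site. So did the peaks nearest to the starts of Srp9 (rank 14), Fignl1 (rank 15) and Flrt1 (rank 16). The same held for Kctd17 (rank 18), Wnt3 (rank 19) and Pmm1 (rank 23). The strongest without a washout peak lay 69290 bp from the start of Col4a1 (rank 12, −log10 p 50.4), a basement membrane collagen. Others lay 72681 bp from the start of Cstad (rank 17) and 4937 bp from that of Extl1 (rank 20). Further ones lay 9086 bp from the start of Gpat2 (rank 24) and 179699 bp from that of Map1b (rank 25). A second CORT peak of the Rab4a region had no washout peak either (rank 21). A peak of Fkbp5, the glucocorticoid-induced co-chaperone of the receptor, shared rank 25 with Map1b and had no washout peak.

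Of the 15 strongest clean sites, 14 overlapped a GR CORT peak and the same 14 an MR washout peak. The 2 strongest were at ubiquitously used genes. A site 101 bp upstream of the start of Rpl27, a protein of the large ribosomal subunit, had a −log10 p of 21.1 after washout (chromosome 11, 101442145 to 101442255) and ranked 1091 after GR CORT, 1373 after MR CORT and 214 after MR washout. A site in an intron of Ptpn11, which encodes the tyrosine phosphatase SHP2, had 20.6 (chromosome 5, 121187845 to 121188009) and ranked 215, 957 and 77 in those lists. The GR CORT percentile of the Rpl27 site, 89.7, was thus below the clean median although its washout call was the strongest of the class.

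The next 4 sites had −log10 p values of 17.3 to 18.9. The first lay 195 bp upstream of Upf3a, a factor of nonsense-mediated decay (chromosome 8, 13785310 to 13785505, 18.9), and ranked 568 after GR CORT. The second was in a coding exon of Nos3, endothelial nitric oxide synthase, nearest to the start of the autophagy gene Atg9b (chromosome 5, 24383543 to 24383675, 18.8), and ranked 362. An intron of Lrig1, which restrains growth factor receptors, held the third (chromosome 6, 94658332 to 94658474, 17.9), at rank 33.

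The site 19577 bp upstream of Rab4a, a GTPase of endosome recycling, ranked high in the GR CORT, MR CORT and MR washout lists (chromosome 8, 123786333 to 123786494). Its −log10 p after GR washout was 17.3 (rank 37 of 246), and it ranked 3 after GR CORT, 2 after MR CORT and 2 after MR washout. It lay in an intron of Gm20388, a predicted gene that spans several others, and its GRE had 2 mismatches. The site 182991 bp from the start of Sipa1l2 (chromosome 8, 125386775 to 125386972, 15.6) was the opposite case, with rank 3521 after GR CORT. A site on the contig JH584304 (14.3) ranked 358 after GR CORT and has no sequence here.

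Nfkbia encodes IκBα, the inhibitor of NF-κB and a gene that glucocorticoids are known to induce. Its site lay in an intron 619 bp downstream of the start (chromosome 12, 55491897 to 55492120), with a −log10 p of 14.2 after GR washout. It ranked 11 after GR CORT, 24 after MR CORT and 16 after MR washout, so like the Rab4a site it was high in those lists. In the GR washout list it had rank 50 of 246. Its GRE, with 3 mismatches, was centred 1 bp from the summit.

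Another 5 of the 15 had values of 13.3 to 14.0. Of these, 2 were in introns of Dagla (14.0, rank 785 after GR CORT), which makes an endocannabinoid, and of Plec (13.9, rank 574), a linker of cytoskeletal filaments. A site 7942 bp upstream of the kinase gene Pak6 (14.0) had rank 281 after GR CORT and 9 after MR CORT. One 2733 bp from the start of the immediate early gene Ier2 (13.3) had rank 25 after GR CORT. The site 31919 bp upstream of Ctnnbl1 (13.8) overlapped neither a GR CORT nor an MR washout peak, but did overlap an MR CORT peak of rank 603.

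The 20 clean sites without a GR CORT peak had a median −log10 p of 9.10 with a range of 5.67 to 13.8, beside 9.75 for the 162 with one, and 7 of them overlapped an MR CORT peak. Of the 19 on main chromosomes, 2 had a GRE (10.5%, 2.94 to 31.4), against 70 of 159 clean sites with a GR CORT peak (44.0%, 36.5 to 51.8). The 2 lay 126 bp upstream of the start of Tmod1 (7.77) and 32177 bp upstream of that of Psma6 (5.67). The latter was the weakest peak of the list, and its GRE had 2 mismatches. No test was made of this difference.

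Clean sites were compared with the GR CORT peaks that had no washout peak, on sequence and position, which the choice of members did not use. The units are single peaks of 1 list each, so these tests compare the lists and not the treatments. Windows were centred on the washout summit for clean sites and on the CORT summit for the other peaks. A GRE was found at 72 of 178 clean sites (40.4%, 33.5 to 47.8) and at 3912 of 10356 GR CORT peaks without a washout peak (37.8%, 36.8 to 38.7). The odds ratio was 1.12, and by a two-sided Fisher's exact test the difference did not pass (adjusted p = 0.846, Benjamini-Hochberg over 7 comparisons). The interval of the clean sites holds the other share, and with 178 sites it spans 33.5% to 47.8%, so a moderate difference could not be detected. With CORT summits in both groups, 70 of 159 GR CORT peaks with a clean washout site had a GRE (44.0%). Fisher's exact test then gave an odds ratio of 1.30 (adjusted p = 0.411).

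Both shares stood above those of flanking sequence. In windows of the same length centred 1000 bp to either side of the clean summits, 55 of 356 held a GRE (15.4%, 12.1 to 19.6), and around all GR CORT summits 14.6% of 21138 did. The GREs of clean sites were centred a median of 36.5 bp from the summit, with quartiles of 17.0 and 61.5 bp. Sites with and without a GRE had median −log10 p values of 9.18 and 9.74 after washout.

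The other motifs were rarer. AP-1, bound by FOS and JUN proteins, was searched as TGACTCA on both strands. The GATA factor motif was searched as AGATAA, and that of NF-1 as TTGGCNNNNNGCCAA with at most 2 mismatches, also on both strands. Each was present at 15 of 178 clean sites (8.43%, 5.17 to 13.4). Among GR CORT peaks without a washout peak the shares were 8.77% for AP-1, 11.5% for GATA and 9.32% for NF-1, and in the flanks of clean sites 4.78%, 14.3% and 6.46%. By Fisher's exact test no difference passed the threshold for these 3 (adjusted p = 1.00, 0.715 and 1.00). With 200 bp to each side of the summit the GATA motif passed the threshold, lower at clean sites (Fisher's exact test, odds ratio 0.596, adjusted p = 0.0481). In the 100 bp window the GATA odds ratio was 0.707 with all chromosomes (Fisher's exact test, adjusted p = 0.715). Without chromosome 8 it was 0.887 in that window by the same exact test (adjusted p = 0.879). The 200 bp window was not run without chromosome 8. G and C made up a median of 53.7% of bases within 100 bp of clean summits. At GR CORT peaks without a washout peak the median was 51.2%. The part of base composition in the GATA shares was not tested.

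**Figure D4:**
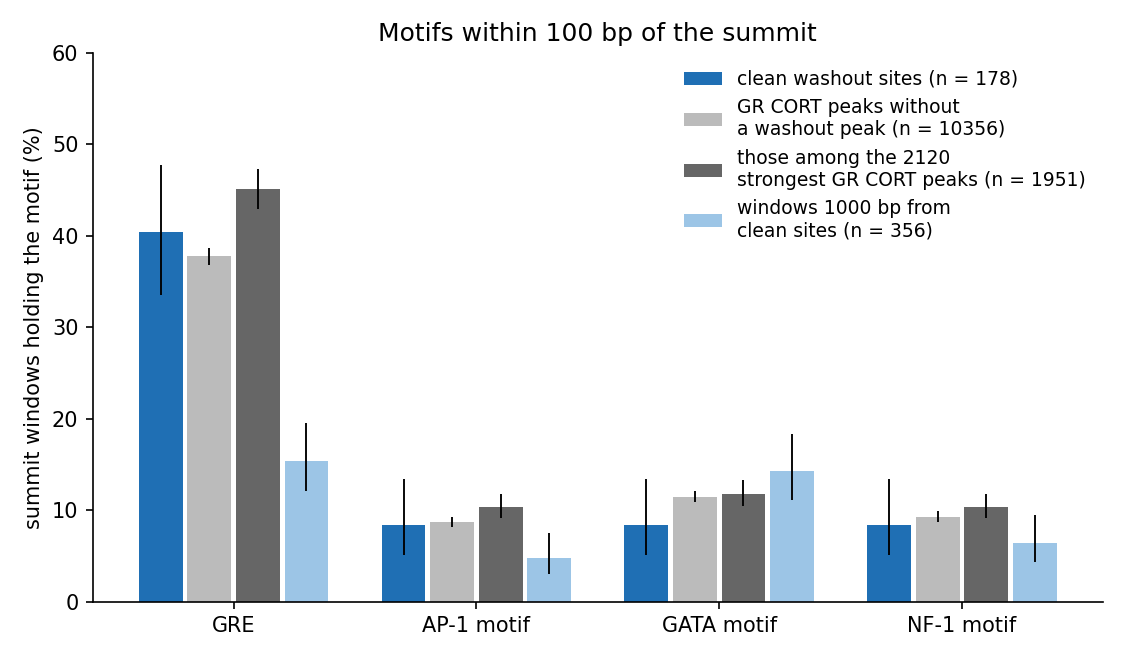
Bars give the percentage of windows within 100 bp of a summit (y axis) that hold each motif (x axis), with 95% Wilson intervals, for clean sites, GR CORT peaks without a washout peak, those of them among the 2120 strongest GR CORT peaks, and windows 1000 bp from clean sites. GRE shares are 40.4%, 37.8%, 45.1% and 15.4%, and the intervals of the first 2 overlap for every motif.

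Strength after CORT bears on the comparison, because most clean sites with a GR CORT peak ranked high in the CORT list. Among its 2120 strongest peaks a GRE was present at 56 of 122 peaks with a clean washout site (45.9%) and 879 of 1951 without a washout peak (45.1%), which gave an odds ratio of 1.03 by Fisher's exact test (adjusted p = 0.908).

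The GRE share of clean sites with and without an MR washout peak did not differ beyond the adjusted threshold. The counts were 59 of 131 (45.0%, 36.8 to 53.6) with an MR washout peak and 13 of 47 (27.7%, 16.9 to 41.8) without. The odds ratio was 2.14, and the two-sided exact test of Fisher gave p = 0.0395 before and 0.276 after adjustment over 7 comparisons. By the same exact test the threshold was passed with 4 mismatches allowed (odds ratio 3.25, adjusted p = 0.0239) and in windows of 200 bp around the summit on either side (odds ratio 2.68, adjusted p = 0.0440). Each setting was adjusted over its own 7 comparisons and not over the settings tried. With 4 mismatches the shares were 84.0% and 61.7%, and 79.1% of GR CORT peaks without a washout peak had such an element. Clean sites with and without an MR washout peak also differed in GR CORT percentile, as given above. A GR CORT peak overlapped 131 of the 133 with an MR washout peak and 31 of the 49 without. Clean sites without a GR CORT peak had a GRE at 10.5%, against 44.0% of those with one. The part of peak strength and of the GR CORT overlap in the GRE shares by MR washout peak was not tested.

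No difference in gene position between the clean sites and the GR CORT peaks without a washout peak passed the test. Their summits lay in introns at 98 of 182 sites, outside genes at 60, in UTRs at 6, in coding exons at 4, in exons of non-coding transcripts at 4 and elsewhere in other annotated genes at 10. Within 1 kb of a protein-coding start lay 16 of 178 (8.99%, 5.61 to 14.1), against 738 of 10356 (7.13%), and Fisher's exact test gave an odds ratio of 1.29 (adjusted p = 0.715). Farther than 5 kb from every gene lay 38 of 178 (21.3%, 16.0 to 27.9), against 2260 of 10356 (21.8%), with an odds ratio of 0.972 in the same exact test (adjusted p = 1.00). Most were distal all the same, with 38 sites within 5 kb of a start, 134 within 50 kb and 157 within 100 kb.

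Chromosome 8 held more clean sites than any other. It carried 43 of 182 (23.6%, 18.0 to 30.3), against 11.4% of GR CORT peaks that had no washout peak, 11.5% of MR washout peaks and 23.2% of the 5509 washout input border pairs. Clean sites and input pairs were most frequent in different stretches of the chromosome. Input pairs were present in every stretch of 10 Mb, with or without clean sites. From 120 to 130 Mb lay 21 clean sites, 11.5% of all clean sites, together with 3.81% of all peaks of GR after CORT, 3.52% of those of MR after washout and 102 input pairs (1.85%). From 20 to 30 Mb lay 583 input pairs (10.6% of them) and 4 clean sites. A GRE was present at 11 of the 43 sites on chromosome 8 (25.6%, 14.9 to 40.2) and at 61 of 135 on the other main chromosomes (45.2%, 37.0 to 53.6). Among GR CORT peaks without a washout peak the share was 37.8% in all and 38.4% without chromosome 8, so theirs was lower there as well. Copy number of this chromosome in the cells was not measured, and its part in these counts was not tested.

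**Figure D5:**
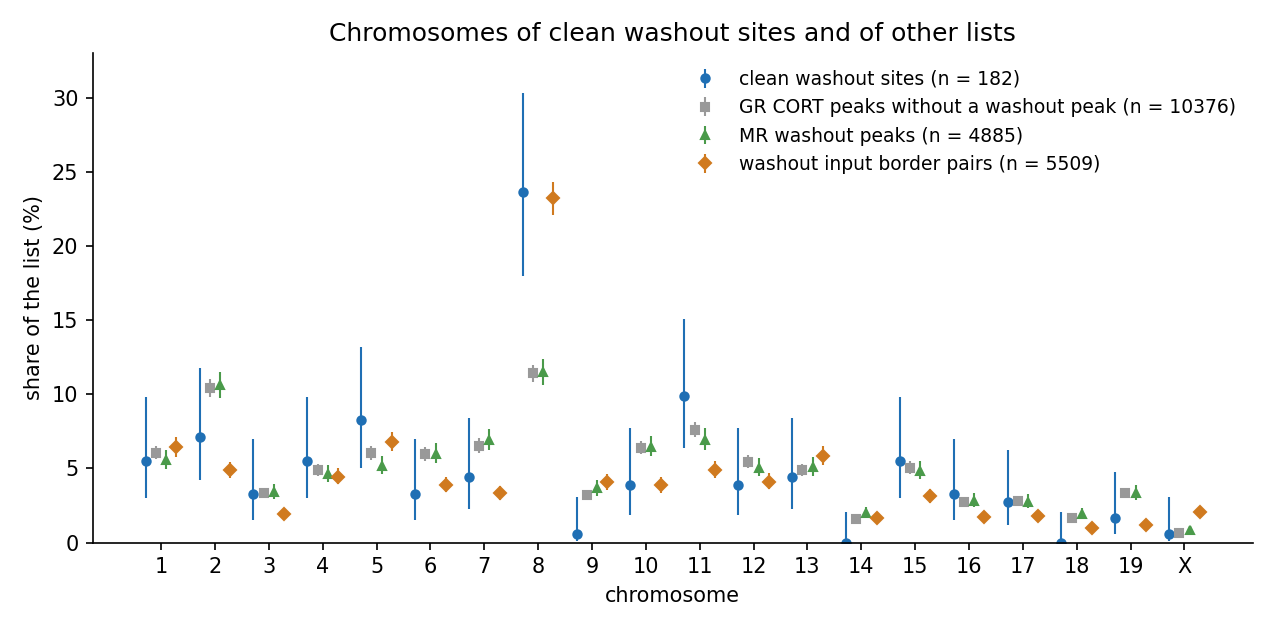
Points give the share of each list (y axis) on each chromosome (x axis), with 95% Wilson intervals, for clean washout sites, GR CORT peaks without a washout peak, MR washout peaks and washout input border pairs. On chromosome 8 the clean sites and the input pairs stand at 23.6% and 23.2%, above the 11.4% and 11.5% of the other 2 lists.

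Most clean sites stood alone. With gaps of at most 100000 bp, 146 of the 182 had no other clean site beside them, and 36 (19.8%) fell into 12 groups. At the same gap 86.7% of the 10602 GR CORT peaks had a neighbour, a share that grows with the length of a list. Of the 12 groups, 7 with 23 sites were on chromosome 8. The largest had 6 sites over 98978 bp nearest to Gins2, and the next had 5 sites over 117601 bp nearest to Gse1, and all but 1 of both lay in introns of Gse1. Their −log10 p values ranged from 7.0 to 11.9 and from 8.39 to 12.4, and 5 sites of each group had an MR washout peak. A GRE was present at 0 of the 6 sites of the first group and 1 of the 5 of the second.

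The group at Nfkbia and Psma6 had 4 sites over 140128 bp, from the strongest at Nfkbia (14.2) to the weakest of the list near Psma6 (5.67), and 2 of the 4 had an MR washout peak. The 3 sites around Ddit4 spanned 53023 bp with values of 7.77, 8.73 and 9.10, and all had an MR washout peak. Their closest GREs had 0, 2 and 3 mismatches, so each site of this group had an element within the limit. The 3 sites near Rab4a and Rhou on chromosome 8 spanned 68466 bp and all had an MR washout peak.

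Genes from lists chosen with earlier results of these data known were looked up within 5 kb. Of all 21992 protein-coding genes, 131 had a clean site in the gene or within that distance (0.596%). Of 26 genes that glucocorticoids are known to induce, 2 had one (7.69%), namely Nfkbia and Cdkn1a, while 17 had a GR CORT peak (65.4%, against 17.6% of all protein-coding genes) and 16 an MR washout peak (61.5%, against 9.39%). Fkbp5 had 12 GR CORT peaks and 11 MR washout peaks but no clean GR washout site, and the same absence held for Sgk1, Per1, Dusp1, Dusp4, Hif3a, Map3k6 and Zbtb16, which all had GR CORT and MR washout peaks. At a distance of 20 kb 5 of the 26 had a clean site, the others being Ddit4 and the neighbouring metallothionein genes Mt1 and Mt2, which share 1 site, against 203 of all protein-coding genes (0.923%).

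The site of Cdkn1a, which encodes the cell cycle inhibitor p21, lay in its intron (chromosome 17, 29094657 to 29094776) with a −log10 p of 9.10 after GR washout. It ranked 95 after GR CORT, 59 after MR CORT and 86 after MR washout. Ddc, the decarboxylase that makes dopamine and serotonin, was the 1 gene of 5 followed by the study that had a clean site (20.0%). It was also the 1 of 15 sympathetic neuroblast genes with one (6.67%), so a single gene makes up both counts. The share of all protein-coding genes was 0.596%. A GR CORT peak was at all 5 genes of the first list and at 6 of the second (40.0%), against 17.6% of all protein-coding genes. The study took the genes it measured from those that both receptors bound. The Ddc site lay in an intron (chromosome 11, 11844599 to 11844719) with 12.1 after GR washout, and ranked 15 after GR CORT, 7 after MR CORT and 7 after MR washout. The nearest protein-coding start to that site was that of Fignl1.

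None of 14 chaperone genes or 15 circadian genes had a clean site, at 5 kb or at 20 kb, and at the share of all protein-coding genes (0.596% and 0.923%) lists of this length would hold about none either. Within 5 kb, 8 of the circadian genes had a GR CORT peak (53.3%, against 17.6% of all protein-coding genes) and 3 an MR washout peak (20.0%, against 9.39%), among them Per1 and Per2, whose products close the clock's feedback loop. Of the chaperone genes 1 had a GR CORT peak (7.14%).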

How the data were processed

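ChIP-nexus peaks and border pairs were taken as deposited, on GRCm38 (mm10). The authors trimmed the reads, aligned them with Bowtie2 to the mouse genome, removed copies that shared a random barcode, kept uniquely mapped reads and called peaks on 3 combined replicates with MACS2 (2.1.1.20160309, as named in the submitters' processing notes) against input at a false discovery rate of 5%. Border pairs were called with MACE, and the deposited p-value of each pair was not used beyond its presence in the list. The deposited peak lists give −log10 p, and −log10 q stands under a heading of fold enrichment. The deposited score is the whole part of 10 times −log10 q, and the column headed as −log10 q holds the offset of the summit in bp. The files hold no read counts. Read totals given by the study were not used here, and a peak comes without its own depth.

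Of the 9 lists of border pairs, 4 were used (GR washout and the 3 inputs). Genes were those of GENCODE M21 (55536 genes). Computations used Python 3.11.15, numpy 2.4.6, pandas 2.3.3 and scipy 1.17.1, with figures from matplotlib 3.10.9. Overlap was at least 1 bp. Motifs were sought within 100 bp of summits, shares have 95% Wilson intervals, and 7 comparisons of sequence and position used two-sided Fisher's exact tests with Benjamini-Hochberg adjustment at 0.05. Overlap, motif search and test were tested on simulated data.

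Members, gene lists and tests were chosen with earlier results of these data known. Named genes were those nearest to the 15 strongest clean sites and to the 5 strongest sites of each other class, and list members with a clean site within 5 kb. Sites named outside this rule were chosen after their values were seen. Of the 15 strongest clean sites, 1 is not reported here.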

Additional observations from a re-analysis of the deposited data

How the results depend on the processing

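Single pooled lists limit these results, since no replicate can be left out and the lists give no spread between replicates. Calls in single replicates were not analysed here. No paired analysis was possible because each condition had 1 pooled list. Requiring a −log10 q of at least 5 in every list left 70 clean sites. The share of clean sites with a GR CORT peak became 83.5% when 50% of the shorter peak had to be shared and 52.7% with summits within 50 bp, where the MR washout share became 50%. Border pairs within 100 bp raised the share of the vehicle class to 90.2%. At 20 kb, 5 glucocorticoid-induced genes and 203 genes in all had a clean site.

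None of the comparisons of GRE share with other GR CORT peaks passed the threshold under any alternative. The odds ratio turned below 1 with 4 mismatches (0.939), a 50 bp window (0.942), a −log10 q of at least 5 (0.820) and all washout peaks (0.797). The odds ratio turned above 1 for AP-1 with a 200 bp window (1.26) and without chromosome 8 (1.02), for NF-1 with 50 bp (1.17) and 200 bp (1.03), and for sites far from genes among the 2120 strongest GR CORT peaks (1.03), with 10 kb (1.09) and without chromosome 8 (1.09). GATA passed the threshold at 200 bp (0.596). The GRE difference by MR washout peak passed it with 4 mismatches (3.25) and at 200 bp (2.68). The cause of these changes was not tested. The alternatives without chromosome 8, with GR CORT peaks cleared of receptor exons, vehicle peaks and input, and with clean sites that had a GR CORT peak and no MR vehicle peak, as well as ranks at a −log10 q of at least 5, were chosen after seeing the data. Without chromosome 8 the GRE odds ratio was 1.32.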
